A study of Mus musculus with 6 samples.

Results

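The uptake and binding of fatty acids was described here through 10 genes that were listed by name: Lpl, Gpihbp1 and Angptl4, which act on lipoproteins outside the cell, Cd36, Slc27a1, Slc27a3 and Slc27a4, which act at the membrane, and Fabp3, Fabp4 and Fabp5, which bind fatty acids inside the cell. Of the 10 genes, 9 were measured among the 17924 genes analysed, 8 were abundant enough to be tested, and Gpihbp1 was not analysed here. RNA-seq had been performed on fibroblasts from the dorsal dermis of newborn (P0) C57BL/6J mice after 14 days in adipocyte differentiation medium, with 3 libraries from CTL and 3 from Nelfb-/- cells (Nelfb KO in the labels), which the study's methods call biological replicates. All mice carried Pdgfra-Cre, whose expression covers the preadipocyte lineage and other dermal fibroblasts. CTL mice were Nelfb fl/wt or Nelfb wt/wt and Nelfb-/- mice were Nelfb fl/fl, and the labels do not say which CTL library had which genotype. Nelfb, a subunit of the NELF complex that holds paused RNA polymerase II near the start of genes, is deleted only where Cre is active, so that other cells of the cultures keep it.

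In white fat, the lipase Lpl is secreted by adipocytes and carried to the vessel wall by Gpihbp1, where it releases fatty acids from circulating triglycerides, and Angptl4 inactivates it. Cd36 and the fatty acid transport proteins of the Slc27a family bring long-chain fatty acids across the plasma membrane, the latter also joining them to coenzyme A. Within the cell the small Fabp proteins carry fatty acids to lipid droplets, to enzymes and to the nucleus, and Fabp4 and Cd36 are widely used as targets of Pparg and as markers of mature adipocytes. Macrophages also express Cd36, Lpl, Fabp4 and Fabp5.

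Fabp4 was the member that the study also assayed by RT-qPCR, and its primers are shown because they mark the stretch of the transcript that was read there. The forward primer lay in exon 2 at chr3:10205956-10205973 and the reverse primer in exon 4 at chr3:10204516-10204533 (GRCm38, on the minus strand of the gene, 4 exons), with 11 of the 18 bases of the reverse primer in the annotated coding sequence. They span 181 bases of a transcript of 896 bases, and 1 gene of the annotation held both. The RT-qPCR data were not analysed here.
Fabp4 forward: accgcagacgacaggaag
Fabp4 reverse: tggctcatgccctttcat

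Promoter windows of 250 bases before a RefSeq start (GRCm38.p6) were matched for 5 of the 10 genes, namely Cd36, Fabp3, Slc27a1, Slc27a3 and Slc27a4. There were none for Lpl, Gpihbp1, Angptl4, Fabp4 and Fabp5. The windows of Cd36, the only matched member whose groups were apart with Nelfb-/- lower, and of Slc27a3 and Slc27a4, the members with positive fold changes, are shown with each GC box (GGGCGG, searched on both strands) in capitals. They lie at chr5:17835897-17836146 (minus strand), chr3:90389939-90390188 (minus strand) and chr2:29802384-29802633 (plus strand). The window of Cd36 lies within the annotated gene, before an internal RefSeq start.
Cd36: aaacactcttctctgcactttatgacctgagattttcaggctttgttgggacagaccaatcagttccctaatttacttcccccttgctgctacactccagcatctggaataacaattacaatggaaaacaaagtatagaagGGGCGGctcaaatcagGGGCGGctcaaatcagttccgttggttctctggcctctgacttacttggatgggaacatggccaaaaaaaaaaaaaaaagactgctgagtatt
Slc27a3: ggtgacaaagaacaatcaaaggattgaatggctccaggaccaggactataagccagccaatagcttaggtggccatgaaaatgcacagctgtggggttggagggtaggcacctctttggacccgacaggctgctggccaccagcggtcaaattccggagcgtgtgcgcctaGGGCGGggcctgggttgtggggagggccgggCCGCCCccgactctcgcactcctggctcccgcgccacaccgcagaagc
Slc27a4: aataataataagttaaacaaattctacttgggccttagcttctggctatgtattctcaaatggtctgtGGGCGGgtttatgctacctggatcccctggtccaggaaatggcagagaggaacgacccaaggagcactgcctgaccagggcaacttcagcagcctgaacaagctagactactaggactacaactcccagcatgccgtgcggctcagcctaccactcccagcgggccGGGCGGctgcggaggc
Each of these windows held 2 GC boxes, where 32.7% of 32851 windows of the same length held at least 1. In Cd36 the boxes belonged to a stretch of 34 bases that repeats a unit of 16 bases. Cd36 also held AGGTCA, a half-site of nuclear receptors, at position -228 from the start, as did 14.0% of all windows on either strand, and it did not overlap a GC box. The 3 windows of Slc27a1 held 0, 1 and 3 GC boxes and that of Fabp3 held none, so that the boxes were not particular to the windows shown. The motif TATAAA, which 12.4% of all windows held, was found in no window of the members. A match of letters is a description and says nothing about binding.

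CPM, a gene's reads scaled to 1e+06 reads on all listed genes, allow a gene to be compared between libraries but not genes of unequal length with each other. Where 3 values are given for a group, they stand in the order of replicates 1, 2 and 3. The depth read from the smallest steps of the values was 17.2 to 29.4 M reads (M, 1e+06) per library, and 3 reads, used as a floor of detection, stood for 0.102 to 0.175 CPM. Nelfb was at 17.3 to 22.3 CPM in CTL and at 3.90 to 5.55 CPM in Nelfb-/- libraries (log2 fold change -1.99, limma, SE 0.22, adjusted p = 0.0050). CTL replicate 3 and Nelfb-/- replicate 1 stood apart from the other libraries of their groups on the second principal component, which held 27.7% of the variance, and the fold changes of the tested members are also given without them. The adipocyte markers added up to 6045 to 13520 CPM in CTL against 5460 to 8627 CPM in Nelfb-/- libraries, with all 10 measured, Retn called lower and Lep called higher. Their median log2 fold change was -0.65, with 8 of the 10 negative, and 5 were lower and 1 higher at an unadjusted p under 0.05 (limma). The macrophage markers added up to 246 to 878 CPM in CTL against 2400 to 7567 CPM in Nelfb-/- libraries, and 11 of 12 were called higher. Markers of fibroblasts and preadipocytes added up to 2525 to 11710 CPM and 6195 to 25267 CPM, with CTL replicate 3 highest in its group and 2 of the 8 tested called higher. Smaller sums were found for markers of melanocytes (56.5 to 81.6 CPM in CTL against 103 to 214 CPM in Nelfb-/-, 6 of 7 called higher), Schwann cells (51.5 to 61.4 and 120 to 147 CPM, 3 of 5 higher and 1 lower), skeletal muscle (10.4 to 13.6 and 52.5 to 97.4 CPM, 6 of 8 higher), endothelium (11.2 to 17.0 and 19.0 to 28.8 CPM, 1 of 7 higher) and keratinocytes (4.48 to 4.62 and 11.4 to 25.9 CPM, 3 of 6 higher). Beside these counts, 3.64% of all genes tested were called lower and 7.58% higher. At an unadjusted p under 0.05 these shares were 12.9% and 19.6% (limma). No measured marker of these lists was at or below the floor in all libraries. Sox10 stood in both the melanocyte and the Schwann cell list and was counted as called higher in each. Mitf, at 62.8, 72.4 and 47.2 CPM in CTL, made up most of the melanocyte sum there, and its groups overlapped. The part of these cell types in the levels of the members was not tested.

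**Figure D1:**
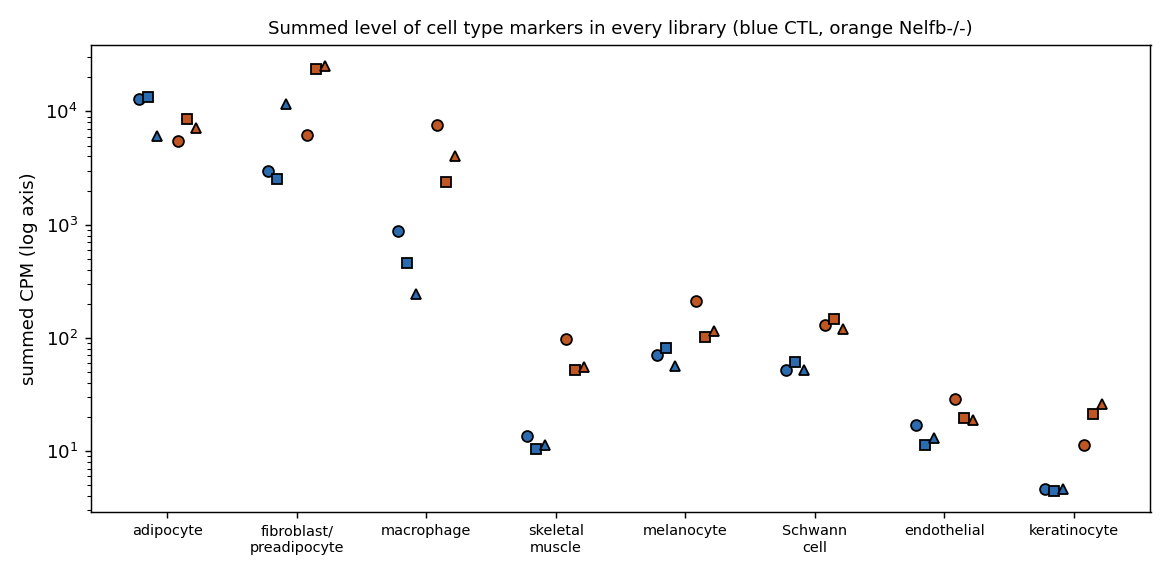
Summed CPM of the genes in each list of cell type markers (log axis), 1 symbol per library, CTL in blue and Nelfb-/- in orange, with circles, squares and triangles for replicates 1, 2 and 3. The macrophage sums are 246 to 878 CPM in CTL against 2400 to 7567 CPM in Nelfb-/- libraries, and the adipocyte sums of the groups overlap.

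Of the 8 members tested, 6 had a negative and 2 a positive log2 fold change in Nelfb-/- cells, and their median was -0.60 against 0.07 over the 16252 genes tested. A gene was called where it changed 2-fold or more and its adjusted p was 0.05 or less. Over all genes 592 were called lower and 1232 higher, that is 32.5% lower among those called, and after quantile normalization 834 and 1014 (45.1%). Fabp5 alone was called lower, 1 of 8 members where 3.64% of all genes tested were called lower. None was called higher, where 7.58% of all genes were, and at an unadjusted p under 0.05 the limma test gave 3 members lower and 0 higher, against 12.9% and 19.6% of all genes. Without the fold limit Fabp5 and Angptl4 passed, against 5.83% of all genes that were lower in this way. All 3 Nelfb-/- libraries lay below all 3 CTL libraries at 4 of the 8, namely Cd36, Angptl4, Fabp4 and Fabp5, where 16.1% of all genes did, and the groups overlapped at Lpl and the 3 Slc27a genes. In these cultures fewer adipocytes and less RNA of a gene per adipocyte cannot be told apart.

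**Figure D2:**
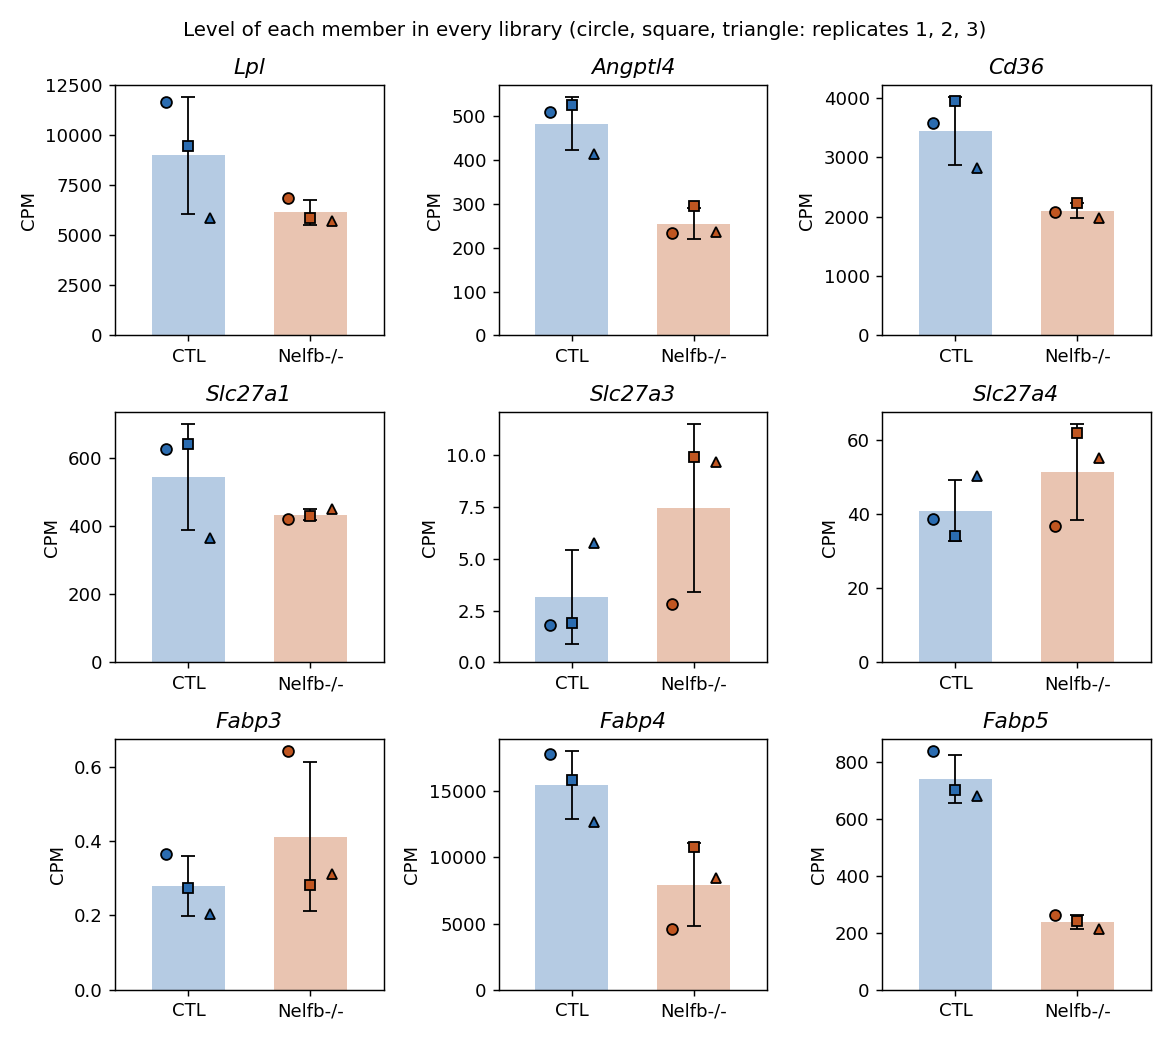
CPM of the 9 measured members in every library, on linear axes that start at 0. Bars are means and error bars SD (n = 3), and circles, squares and triangles are replicates 1, 2 and 3. The groups are apart for Angptl4, Cd36, Fabp4 and Fabp5, and CTL replicate 3 lies lowest in CTL for Lpl, Angptl4, Cd36, Slc27a1 and the 3 Fabp genes.

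Together the 9 members held 3.51%, 3.11% and 2.29% of all reads in the CTL libraries, against 1.44%, 1.995% and 1.71% in those of Nelfb-/- cells. The highest Nelfb-/- library was thus below the lowest CTL library. Fabp4 and Lpl made up most of this share, with Fabp4 at 1.55% ± 0.26 (SD, n = 3) of the reads in CTL and 0.79% ± 0.31 in Nelfb-/- cells, and Lpl at 0.90% ± 0.29 and 0.61% ± 0.06. Divided by the length of the longest coding transcript, the CTL levels ran from Fabp4 (17252 ± 2882 CPM per kb) through Lpl (2184 ± 710), Cd36 (1013 ± 169), Fabp5 (749 ± 86.5), Slc27a1 (195 ± 55.3) and Angptl4 (146 ± 18.4) to Slc27a4 (10.1 ± 2.05), Slc27a3 (1.40 ± 0.99) and Fabp3 (0.341 ± 0.098). In that order Slc27a1 and Angptl4 lay within 1 SD of each other, and the libraries of Cd36 and Fabp5 overlapped, at 829 to 1160 and 689 to 848 CPM per kb. In Nelfb-/- cells the order was the same by mean, with Fabp5 at 241 ± 24.0, Slc27a1 at 155 ± 5.74 and Angptl4 at 77.1 ± 10.6 CPM per kb.

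Lpl (ENSMUSG00000015568, chr8:68880491-68907448, GRCm38 as for all genes below), the lipase itself, was at 11650, 9447 and 5861 CPM in the CTL libraries against 6833, 5879 and 5689 CPM in those of Nelfb-/- cells. CTL replicate 3 lay among the Nelfb-/- libraries, while the other CTL libraries lay above them. Its log2 fold change was -0.50 (limma, SE 0.45, adjusted p = 0.48), with a 95% interval of -1.57 to 0.57, so that no change could be resolved. With single libraries left out it ran from -0.78 without CTL replicate 3 (limma, adjusted p = 0.17) to -0.28 without CTL replicate 1 (limma, adjusted p = 0.79). Without CTL replicate 3 and Nelfb-/- replicate 1 it was -0.86 (limma, SE 0.26, adjusted p = 0.028), still under 2-fold.

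Angptl4 (ENSMUSG00000002289, chr17:33773750-33781830), the inhibitor of Lpl, was at 511, 527 and 414 CPM in the CTL libraries against 233, 295 and 237 CPM in those of Nelfb-/- cells. The groups were apart, and the highest Nelfb-/- library was below the lowest CTL library. Its log2 fold change of -0.92 (limma, SE 0.18, adjusted p = 0.020, 95% interval -1.35 to -0.50) passed the limit on p but at 1.90-fold missed the limit on the change. The call was met without CTL replicate 3 (-1.03, limma, adjusted p = 0.014) or without Nelfb-/- replicate 2 (-1.03, limma, adjusted p = 0.045), and the adjusted p lay between 0.014 and 0.10 over the libraries left out in turn. With both libraries that stand apart left out it was -0.97 (limma, SE 0.12, adjusted p = 0.0010). Per 100 CPM of Lpl there were 4.38, 5.57 and 7.07 CPM of Angptl4 in the CTL libraries against 3.41, 5.02 and 4.16 CPM in those of Nelfb-/- cells. This ratio overlapped between groups (log2 difference -0.43, exact two-sided permutation p = 0.20, adjusted 0.33 over 5 ratios), and 0.1 is the smallest p that 3 against 3 libraries can give. The difference was -0.25 without CTL replicate 3 and -0.60 without CTL replicate 1.

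The other genes that act on Lpl, its cofactors, proteases and receptors, held genes that fell and genes that did not. Of 13 tested genes in the list for the control of lipoprotein lipase, 2 were called lower and 0 higher (limma, 6 lower and 3 higher at an unadjusted p under 0.05), at a median log2 fold change of -0.34. Of all genes tested, 3.64% were called lower and 7.58% higher, and 12.9% and 19.6% were so at that unadjusted p (limma). Apoc1, an apolipoprotein that inhibits lipoprotein clearance, was at 108, 117 and 66.8 CPM in CTL against 7.97, 6.46 and 4.65 CPM in Nelfb-/- libraries (log2 fold change -3.92, limma, SE 0.29, adjusted p = 0.0033). Sorl1, a sorting receptor, was at 26.5, 15.2 and 44.6 CPM in CTL against 4.88, 7.22 and 10.4 CPM in Nelfb-/- libraries (-1.87, limma, SE 0.45, adjusted p = 0.037). Both had their groups apart. The call of Apoc1 was kept without any 1 of the 6 libraries, whereas that of Sorl1 was lost in 5 of the 6 such fits, all but the one without CTL replicate 2 (log2 fold change -2.26 to -1.48 over the 6, limma, adjusted p 0.043 to 0.12). Without the abundance trend the call of Sorl1 was lost too (limma, adjusted p = 0.051), and with CTL replicate 3 and Nelfb-/- replicate 1 both left out it was called at -1.21 (limma, adjusted p = 0.013). Apoe, which macrophages also make, was at 4089, 4005 and 1688 CPM in CTL against 7012, 1616 and 2343 CPM in Nelfb-/- libraries (log2 fold change -0.02, limma, adjusted p = 0.99). It was highest in Nelfb-/- replicate 1, where the macrophage sum was also highest, but the other Nelfb-/- libraries lay below CTL replicates 1 and 2 in Apoe and above them in that sum. The part of macrophages in its level was not tested.

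Among the 6 lipoprotein receptors, which take up whole particles or their remnants, 1 was called higher and 0 lower (limma, 1 higher and 1 lower at an unadjusted p under 0.05), at a median log2 fold change of 0.29. The shares over all genes were 7.58% called higher and 3.64% lower, and 19.6% higher and 12.9% lower at that unadjusted p (limma). Lrp8, a receptor for Apoe and reelin, was at 2.30, 2.29 and 5.81 CPM in CTL against 13.8, 7.10 and 10.5 CPM in Nelfb-/- libraries (1.68, limma, SE 0.44, adjusted p = 0.049). All Nelfb-/- libraries lay above the CTL libraries. The call was kept only without CTL replicate 3 and was lost without each of the other 5 libraries (1.45 to 2.12 over the 6 fits, limma, adjusted p 0.012 to 0.16), and it was also lost after quantile normalization (1.44, limma, adjusted p = 0.058), with median-of-ratios scaling (1.61, limma, adjusted p = 0.052) and without the abundance trend (limma, adjusted p = 0.060).

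Cd36 (ENSMUSG00000002944, chr5:17781690-17888801), the fatty acid translocase of the plasma membrane, was at 3571, 3943 and 2818 CPM in the CTL libraries against 2080, 2229 and 1976 CPM in those of Nelfb-/- cells. The Nelfb-/- libraries were close to each other and all below the lowest CTL library. The log2 fold change was -0.70 (limma, SE 0.28, adjusted p = 0.13, 95% interval -1.37 to -0.04) and did not pass. With CTL replicate 3 and Nelfb-/- replicate 1 both left out it was -0.84 (limma, SE 0.17, adjusted p = 0.0063), under 2-fold. The window shown above for it, with the repeated GC box, lies inside these bounds, before an internal RefSeq start. It is not the window before the outermost start of the annotated gene.

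The 11 genes that act with Cd36 at the membrane, such as caveolae proteins, palmitoylating enzymes and Src-family kinases, had a median log2 fold change of 0.18. Of them 1 was called higher and 0 lower, where 7.58% and 3.64% of all genes were. At an unadjusted p under 0.05 limma gave 2 higher and 0 lower, against 19.6% and 12.9% of all genes. The called gene was Lyn, a kinase that signals from Cd36 and is expressed by myeloid cells, at 9.41, 9.32 and 14.8 CPM in CTL against 43.6, 37.1 and 50.6 CPM in Nelfb-/- libraries (1.99, limma, SE 0.23, adjusted p = 0.0057). Lyn and the macrophage sums were both higher in every Nelfb-/- library than in every CTL library. Among the Nelfb-/- libraries both were lowest in replicate 2, while Lyn was highest in replicate 3 and the sum in replicate 1. The part of macrophages in its level was not tested.

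Slc27a1 (ENSMUSG00000031808, chr8:71568882-71587302), the insulin-responsive transport protein of adipocytes and muscle, was at 625, 640 and 366 CPM in the CTL libraries against 419, 428 and 450 CPM in those of Nelfb-/- cells. CTL replicate 3 was the lowest of all 6 libraries and the other CTL libraries were the highest, whereas the Nelfb-/- libraries differed by at most 1.07-fold. The log2 fold change was -0.29 (limma, SE 0.25, adjusted p = 0.47, 95% interval -0.89 to 0.31). Over the libraries left out in turn it lay between -0.55 without CTL replicate 3 (limma, adjusted p = 0.043) and -0.15 without CTL replicate 2 (limma, adjusted p = 0.81). Without CTL replicate 3 and Nelfb-/- replicate 1 it was -0.53 (limma, SE 0.09, adjusted p = 0.0037), under 2-fold.

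Slc27a4 (ENSMUSG00000059316, chr2:29802634-29817522), a transport protein of many tissues with a main role in skin, was at 38.6, 34.0 and 50.1 CPM in the CTL libraries against 36.8, 61.9 and 55.0 CPM in those of Nelfb-/- cells. Nelfb-/- replicate 1 lay among the lower CTL libraries and CTL replicate 3 near the higher Nelfb-/- libraries. Its log2 fold change was 0.31 (limma, SE 0.24, adjusted p = 0.43, 95% interval -0.28 to 0.90). It ran from 0.16 without Nelfb-/- replicate 2 (limma, adjusted p = 0.77) to 0.53 without Nelfb-/- replicate 1 (limma, adjusted p = 0.11). With CTL replicate 3 and Nelfb-/- replicate 1 both left out it was 0.69 (limma, SE 0.11, adjusted p = 0.0023), under 2-fold.

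Slc27a3 (ENSMUSG00000027932, chr3:90385239-90389938), a family member known mainly as an acyl-CoA synthetase, was at 1.80, 1.91 and 5.75 CPM in the CTL libraries against 2.80, 9.90 and 9.67 CPM in those of Nelfb-/- cells. It showed the same exchange of CTL replicate 3 and Nelfb-/- replicate 1 as Slc27a4, and the highest library of each group exceeded its lowest by 3.19-fold in CTL and 3.54-fold in Nelfb-/- cells. The log2 fold change was 1.24 (limma, SE 0.65, adjusted p = 0.24, 95% interval -0.33 to 2.80), and it was 0.93 to 1.83 over the fits that lacked a single library, none of which called it. With CTL replicate 3 and Nelfb-/- replicate 1 both left out it was 2.37 (limma, SE 0.19, adjusted p = 0.00019), which passed the call. Both libraries also stood apart in their macrophage or fibroblast sums, and the part of these cells was not tested. Slc27a3 amounted to 0.29, 0.30 and 1.57 CPM per 100 CPM of Slc27a1 in the CTL libraries against 0.67, 2.31 and 2.15 CPM in those of Nelfb-/- cells (log2 difference 1.52, exact two-sided permutation p = 0.20, adjusted 0.33). The difference was 2.32 without CTL replicate 3 and 1.11 without CTL replicate 1.

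Of the other fatty acid transport proteins, 1 of 3 was measured, Slc27a6, at 2.01 to 2.39 CPM in CTL against 1.94 to 2.79 CPM in Nelfb-/- libraries (log2 fold change 0.14, limma, adjusted p = 0.74, and -0.21 after quantile normalization). The long-chain acyl-CoA synthetases, which trap fatty acids as they enter, had 5 of 5 tested genes on the positive side, of which Acsl1 turned to -0.01 and -0.02 under median-of-ratios scaling and quantile normalization, at a median log2 fold change of 0.56, and 0 were called in either direction (limma, 3 higher and 0 lower at an unadjusted p under 0.05). Over all genes 7.58% were called higher and 3.64% lower, and 19.6% and 12.9% were so at that unadjusted p (limma). Acsbg1, a synthetase better known from brain, overlapped between groups (0.41, limma, adjusted p = 0.67) and was called in none of the 6 fits without 1 library (0.08 to 0.95), but it was called with CTL replicate 3 and Nelfb-/- replicate 1 both left out (1.40, limma, adjusted p = 0.0042) and with gene-by-gene quality weights per library (1.18, limma, adjusted p = 0.0077). Acsl1, the main adipocyte form, was at 3120, 2759 and 1612 CPM in the CTL libraries against 1596, 3341 and 2919 CPM in those of Nelfb-/- cells (0.06, limma, SE 0.42, adjusted p = 0.95, and -0.23 to 0.38 without 1 library). CTL replicate 3 and Nelfb-/- replicate 1 were the low libraries of their groups.

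Fabp4 (ENSMUSG00000062515, chr3:10204088-10208576), the binding protein of mature adipocytes, was at 17827, 15840 and 12706 CPM in the CTL libraries against 4571, 10808 and 8423 CPM in those of Nelfb-/- cells. All Nelfb-/- libraries were below the CTL libraries, but they spread over 2.36-fold, with Nelfb-/- replicate 1 lowest. The log2 fold change of -1.04 (2.05-fold, limma, SE 0.54, adjusted p = 0.24, 95% interval -2.33 to 0.26) did not pass. It was -0.68 without Nelfb-/- replicate 1 and -1.30 without Nelfb-/- replicate 2, and it was -0.46 after quantile normalization. Without Nelfb-/- replicate 1 and CTL replicate 3 it was -0.82 (limma, SE 0.32, adjusted p = 0.067). The library with the lowest Fabp4 also had the highest macrophage sum, 7567 CPM, and the lowest sum of adipocyte markers, 5460 CPM, and their part in the result was not tested.

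Fabp5 (ENSMUSG00000027533, chr3:10012548-10016607), the binding protein shared by adipocytes, macrophages and epidermis, was at 837, 701 and 680 CPM in the CTL libraries against 261, 240 and 214 CPM in those of Nelfb-/- cells. The groups were far apart, and the libraries of a group differed by at most 1.23-fold. Fabp5 fell by 1.63 on the log2 scale (3.10-fold, limma, SE 0.17, adjusted p = 0.0042, 95% interval -2.03 to -1.23). It was called under each of 16 alternative settings, at log2 fold changes of -1.80 to -1.54, and with CTL replicate 3 and Nelfb-/- replicate 1 both left out it was -1.76 (limma, adjusted p = 0.00012). The Nelfb-/- libraries had the higher macrophage and keratinocyte sums and the lower Fabp5, and among them replicate 1 had the highest macrophage sum, the lowest keratinocyte sum and the highest Fabp5. The part of these cells in the result was not tested.

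Fabp5 has processed pseudogenes, copies without introns whose reads cannot be told apart from its own where their sequences are the same. In words of 31 bases, Gm6166 shared 27.2%, Gm14328 16.8% and Fabp5l2 6.17% of the Fabp5 transcript, and these were the measured copies with a share of at least 5%. Gm6166 was listed at 230, 191 and 179 CPM in CTL against 71.3, 70.3 and 57.4 CPM in Nelfb-/- libraries (log2 fold change -1.59, limma, SE 0.16, adjusted p = 0.0042). Gm14328 was listed at 61.0, 44.4 and 40.8 CPM and at 17.7, 17.5 and 12.8 CPM (-1.60, limma, SE 0.22, adjusted p = 0.0080). Fabp5l2 had 1.21 to 1.88 CPM in CTL against 0.169 to 0.834 CPM in Nelfb-/- libraries (-2.12, limma, SE 0.59, adjusted p = 0.058). The copies held 24.5% to 27.0% of the sum of Fabp5 and its copies in every library, nearly all of it on Gm6166 and Gm14328. Fabp5l2 spread over 4.92-fold within the Nelfb-/- libraries, where Fabp5 spread over 1.22-fold. This sum was 1130, 938 and 902 CPM in CTL against 350, 329 and 284 CPM in Nelfb-/- libraries, a log2 ratio of the group means of -1.62, so that the change of Fabp5 was nearly the same with and without them. Its level, however, is uncertain by about that share.

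Per 100 CPM of Fabp4 there were 4.70, 4.42 and 5.36 CPM of Fabp5 in the CTL libraries against 5.71, 2.22 and 2.54 CPM in those of Nelfb-/- cells. Nelfb-/- replicate 1 lay above all CTL libraries and the other Nelfb-/- libraries below them, so that a greater change of Fabp5 than of Fabp4 was not shown (log2 difference -0.60, exact two-sided permutation p = 0.40, adjusted 0.50 over 5 ratios). Without Nelfb-/- replicate 1 the difference was -1.02 (exact two-sided permutation p = 0.10, the smallest possible with these libraries). Without Nelfb-/- replicate 2 it was -0.34. Cd36 per 100 CPM of Fabp4 was 20.03, 24.9 and 22.2 CPM in CTL against 45.5, 20.6 and 23.5 CPM in Nelfb-/- libraries, again with Nelfb-/- replicate 1 apart (0.33, exact two-sided permutation p = 0.60, adjusted 0.60). That difference was -0.02 without Nelfb-/- replicate 1.

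Fabp3 (ENSMUSG00000028773, chr4:130308595-130315463), the heart and muscle form that is also found in brown fat, was at 0.365, 0.274 and 0.203 CPM in the CTL libraries against 0.643, 0.281 and 0.312 CPM in those of Nelfb-/- cells. These are about 5 to 14 reads in a library, with Nelfb-/- replicate 1 highest and the groups overlapping. Its mean lay under 10 reads, so that it was not tested. The processed pseudogene Fabp3-ps1 shared 35.2% of its words and held 16.2% to 64.3% of the reads on both, so that the level of Fabp3 is uncertain as well. Relative to Fabp4, Fabp3 was higher in every Nelfb-/- library (log2 difference 1.47, exact two-sided permutation p = 0.10, adjusted 0.33), a ratio that rests on these few reads. The difference was 0.78 without Nelfb-/- replicate 1 and 1.94 without Nelfb-/- replicate 2.

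**Figure D3:**
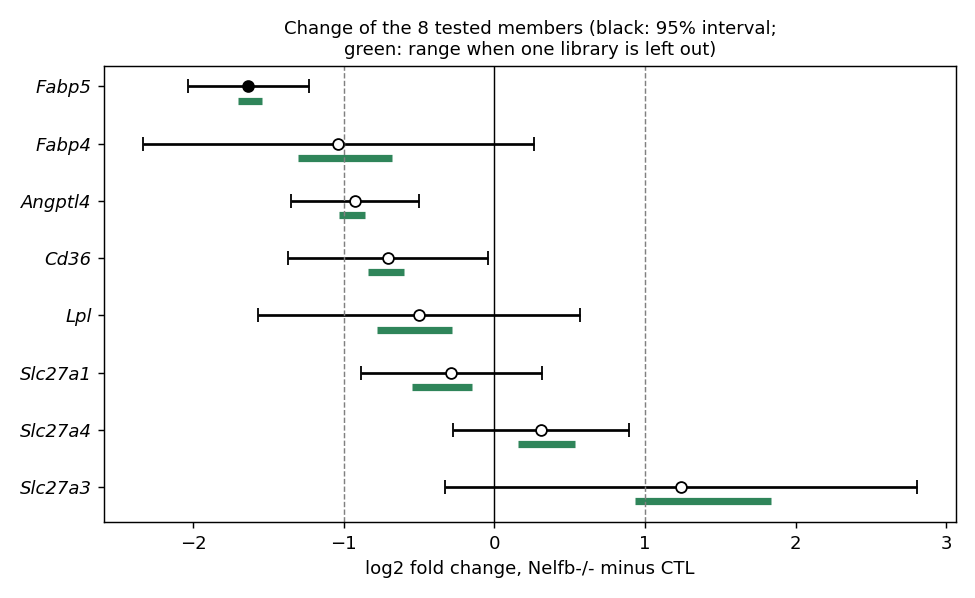
Log2 fold change of the 8 tested members in Nelfb-/- relative to CTL cells, with black 95% intervals from limma, green bars for the range when each library is left out in turn, and dashed lines at 2-fold. The filled point, Fabp5 at -1.63, is the only one called, and the intervals of Lpl, Fabp4 and the Slc27a genes cover 0.

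**Figure D4:**
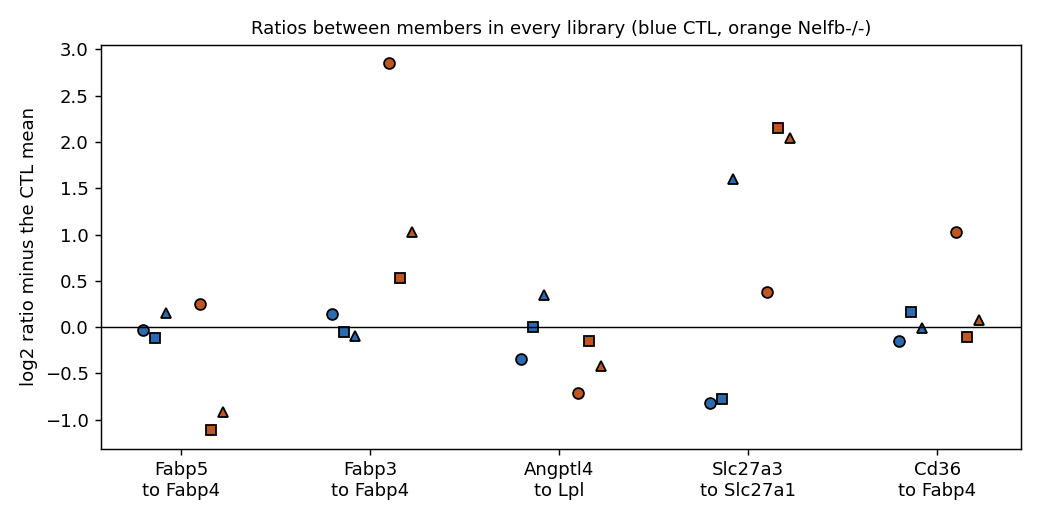
Log2 ratio of 2 members in each library minus the CTL mean of that ratio, CTL in blue and Nelfb-/- in orange, with circles, squares and triangles for replicates 1, 2 and 3. Nelfb-/- replicate 1 departs from the other Nelfb-/- libraries in the ratios to Fabp4, and Fabp3 to Fabp4 is the only ratio whose groups are apart.

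The other intracellular lipid-binding proteins that were tested had a median log2 fold change of 1.17 over 5 genes, 2 called higher and 0 lower (limma, 3 higher and 0 lower at an unadjusted p under 0.05). Among all genes 7.58% were called higher and 3.64% lower, and 19.6% and 12.9% were so at that unadjusted p (limma). Fabp7, the form of brain and Schwann cell precursors, was at 0, 0.187 and 0.374 CPM in CTL against 4.84, 2.44 and 2.65 CPM in Nelfb-/- libraries (4.29, limma, SE 0.85, adjusted p = 0.021). Crabp2, which carries retinoic acid, was at 0.586, 0.327 and 1.46 CPM in CTL against 16.6, 13.4 and 9.63 CPM in Nelfb-/- libraries (4.19, limma, SE 0.54, adjusted p = 0.0070). In both the groups were apart. The size of these fold changes depended on the pseudocount, since at 1 CPM they were 1.83 for Fabp7 and 3.01 for Crabp2, both still called. The call of Crabp2 was kept in each of the 6 fits without 1 library, and that of Fabp7 was lost without CTL replicate 2, Nelfb-/- replicate 2 or Nelfb-/- replicate 3 (limma, adjusted p 0.064, 0.065 and 0.084). The summed Schwann cell markers were higher in Nelfb-/- libraries as well, although Mbp was called lower and the sum was highest in replicate 2, whereas Fabp7 was highest in replicate 1. The part of these cells in its level was not tested.

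**Figure D5:**
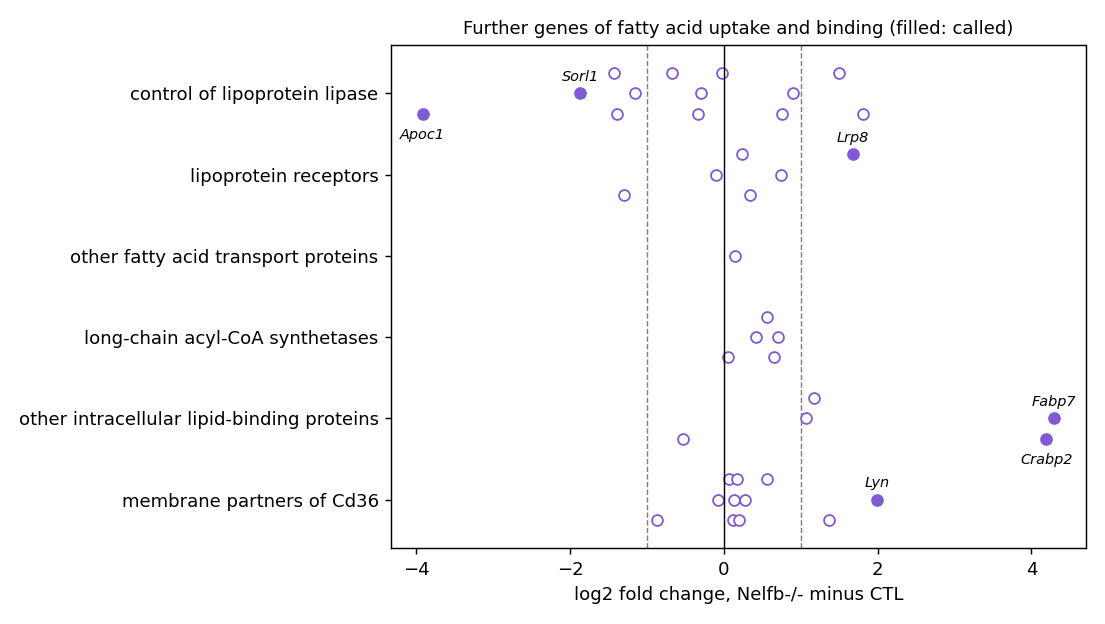
Log2 fold changes of the tested genes in 6 further lists on fatty acid uptake and binding, 1 point per gene, with dashed lines at 2-fold. The filled points are the called genes, Apoc1 and Sorl1 lower and Lrp8, Fabp7, Crabp2 and Lyn higher in Nelfb-/- cells.

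Over the 6 lists, 41 of 56 genes were tested, 14 with a negative and 27 with a positive log2 fold change, and 2 were called lower and 4 higher. These shares stand beside 3.64% and 7.58% of all genes tested. The number called lower was 1 when any of CTL replicate 1 or Nelfb-/- replicates 1, 2 or 3 was left out, and that called higher was 2 without CTL replicate 2 or Nelfb-/- replicate 2 or 3. With CTL replicate 3 and Nelfb-/- replicate 1 both left out, 4 were called lower and 9 higher, where 1519 and 2864 of all genes were.

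Fabp4 and Fabp5 are neighbours on chromosome 3, 187480 bases apart. Within 300 kb of them 8 other genes were measured, and 0 of the 6 tested were called (limma, 1 lower and 5 higher at an unadjusted p under 0.05). Of all genes tested, 3.64% were called lower and 7.58% higher, and 12.9% and 19.6% were so at that unadjusted p (limma). Impa1, an inositol monophosphatase, was the next measured gene at higher coordinates than Fabp4 (chr3:10311956-10331439). It was at 27.2, 28.5 and 26.3 CPM in CTL against 42.7, 46.3 and 41.5 CPM in Nelfb-/- libraries (0.67, limma, SE 0.12, adjusted p = 0.017), under the 2-fold limit. Gm9833, Pag1, Chmp4c and Snx16 had log2 fold changes of 0.65, 0.61, 0.77 and 0.55 (limma, adjusted p 0.058 to 0.14), and Zfand1 had -0.74 (limma, adjusted p = 0.073). Gm38335 and Pmp2, the binding protein of peripheral myelin, were under the limit for testing.

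The genes whose log2 values ran most like those of a member over the 6 libraries were named by Pearson's r, as a description that also reflects the difference between groups and shared depth. They were Ccdc117 and Doc2b for Cd36 (r of 0.999 and 0.997), Ifi205 and Sytl1 for Lpl (0.996 and 0.994), Sema3b and Mrps30 for Angptl4 (0.997 and 0.995) and Mtarc2 and Pdhx for Fabp4 (0.997 and 0.995). For Fabp5 they were Oxa1l and its own pseudogene Gm6166 (both 0.999), for Slc27a1 Maco1 and Foxd2 (both 0.996), for Slc27a3 Mcm2 and Mbd3 (both 0.998) and for Slc27a4 Apex1 and Mrps11 (0.996 and 0.994). Among the members, Cd36 and Angptl4 (0.979) and Slc27a3 and Slc27a4 (0.958) were the most alike, while Lpl and Slc27a3 ran most opposite (-0.888).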

How the data were processed

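RNA-seq was analysed from a table of 6 libraries that the authors deposited in CPM with an offset of 0.0001 added. The submitters' processing notes name mm10, STAR 2.7 and Partek 9.0.20.0202, the study's methods name DESeq2 for alignment, and the counter is not given in the sources used here. CPM does not correct for gene length, and reads of near-identical copies can be split between genes. The offset was subtracted and each library's depth was taken from the smallest step. Since only 69.0% to 72.2% of low values (20 reads or fewer) came out whole within 0.02 reads, no count test was run. Values were multiplied by a depth of 22.3 M reads (M, 1e+06), genes whose mean reached 10 reads (0.448 CPM) were kept, and log2(value + 1) was tested with limma 3.58.1 (R 4.3.3) with an abundance trend and Benjamini-Hochberg adjustment over 16252 genes. On this scale fold changes of low genes are understated. p-values measure the spread between these libraries.

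Ratios were compared by an exact permutation test. Lengths and Ensembl IDs came from GENCODE vM21. Named genes were all members, the called genes of 6 further lists or, where none was called, the one of highest mean CPM, the 2 genes most alike to each member, neighbours of Fabp4 and Fabp5 and close copies. Gm6166 and Gm14328 were found as copies by shared sequence after the data were seen, and Apoe and Acsbg1 were named after their values were seen. The members and lists were chosen with earlier results of these data known. Each library was left out in turn, and pseudocount, filter, scaling, trend, replicate block and, added after seeing the data, library weights and leaving out 2 libraries were varied. For samples with the same replicate number the deviations from the group means correlated at 0.52, -0.39 and 0.52. With so few libraries this cannot decide whether they were paired.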

Additional observations from a re-analysis of the deposited data

How the results depend on the processing

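Fabp5 was called lower under all 16 alternatives that were fitted, and each of the 8 tested members kept the sign of its log2 fold change under them. The members called lower were 1 to 2 over the fits that lacked a single library, and 2 with library weights estimated gene by gene, where Angptl4 joined (-1.03). The members called higher were 1 with those weights and 1 with CTL replicate 3 and Nelfb-/- replicate 1 both left out, in each case Slc27a3. Over all genes these fits called 1479 lower and 2839 higher with the weights, and 1519 and 2864 without both libraries. Pathway genes called lower were 1 without the abundance trend, 5 with the replicate block and 4 with both libraries left out, and 1 to 2 with each library left out. Pathway genes called higher were 10 with the weights, 9 with both libraries left out and 2 to 5 with each library left out. The log2 ratio of Cd36 to Fabp4, at 0.33, turned to -0.018 without Nelfb-/- replicate 1 and was otherwise 0.25 to 0.55. The weights and the fit without both libraries were chosen after the data were seen, and the planned weights could not be fitted, since their estimate did not converge. The cause of these changes was not tested.

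The replicate block gave 670 genes lower and 1505 higher in all, against 592 and 1232 without it, and changed no call among the members. Not every sample correlated best with its own replicate number, so the numbers were not used as pairs. Quantile normalization moved the median of all genes from 0.07 to -0.07 and the lower share of the called genes from 32.5% to 45.1% (834 lower, 1014 higher). Without Nelfb-/- replicate 3, 136 genes were lower and 290 higher, and without CTL replicate 3, 776 and 1703. The depth limits Fabp3 in every library and Fabp7 in CTL, with few reads.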
